A study of Caenorhabditis elegans with 32 samples.

Results

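The body-shape cuticle collagens described here are 10 genes of the nematode Caenorhabditis elegans, chosen by their gene names from the 46926 rows of the deposited count table. They are the furrow collagens dpy-2, dpy-3, dpy-7, dpy-8, dpy-9 and dpy-10, the blister genes bli-1 and bli-2, the roller gene rol-6 and the squat gene sqt-3. All 10 were found in the table, and all 10 passed the filter on low counts in each fit. Messenger RNA was sequenced from whole synchronised hermaphrodites of 4 strains on day 1 of adulthood at 20 °C, with 4 replicates per strain. Each lysate gave 1 library of total mRNA, called lysate here, and 1 library of mRNA that sedimented with polysomes in a sucrose gradient, which makes 32 libraries. The control, called wild type here, is strain DUP167, lotr-1(sam85[3xFLAG::gfp::lotr-1]). ΔLOTR-1 is DUP207, with the allele sam117, an in-frame deletion of the whole gene. ΔLOTUS is DUP217, with sam113, and lacks the LOTUS domain, and ΔTudor is DUP185, with sam102, and lacks the Tudor domain. The genotype labels of all 4 strains, the control included, carry the 3xFLAG::gfp tag at lotr-1, a gene whose product sits in granules of germ cells, and each genotype is held by 1 strain, so the strain and the allele cannot be told apart. The question asked of the series was what LOTR-1 and its domains contribute to mRNA levels and to translation.

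The cuticle of the worm is a collagen coat that the epidermis lays down before hatching and replaces at every molt, so that collagen mRNAs rise and fall with the molting cycle. The furrow collagens assemble into bands that ring the body at the grooves between annuli, and worms that lose any of them are short and fat, or dumpy. BLI-1 and BLI-2 build the struts that hold the layers of the adult cuticle together, and their loss gives fluid-filled blisters. ROL-6 is known for dominant mutant forms that twist the body and serve as a transformation marker, and SQT-3 is a collagen whose mutants are dumpy or embryonic lethal and whose C-terminal propeptide is removed by the protease DPY-31. A cuticle collagen is hydroxylated, trimerised, cleaved and cross-linked before it is stable. Adults do not molt again.

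Totals ran from 31.4 to 40.2 M (mega) counts over the 16 lysate libraries and from 27 to 36.2 M over the 16 of the polysome fraction. Libraries of replicate numbers 3 and 4 stood apart from those of numbers 1 and 2 in all 4 strains and in both fractions, and the labels do not say what a replicate number stands for beyond a biological replicate. Levels of the collagens are therefore given by number, and calls made with the number as a block are given with each number left out in turn. Counts of calls with a number left out come without the share of all genes called in that fit. A change in such a count is therefore no result about the listed genes. The targeted gene lotr-1 (WBGene00008385) measured 28.1 to 80.8 CPM (the gene's count per M counts of its library, scaled by TMM) in the ΔLOTR-1 lysates against 107 to 329 in the wild type, 134 to 304 in ΔLOTUS and 101 to 321 in ΔTudor. In the polysome fraction lotr-1 measured 41.6 to 125 CPM in ΔLOTR-1 and 40.6 to 111 in the wild type, so these groups overlapped. Its fitted log2 change in the ΔLOTR-1 lysates was -2.06 (SE 0.45, adjusted p = 0.127) without the replicate number as a block, and with the block the adjusted p was 2.51e-08. All 10 of the listed epidermal transcription factors and heterochronic regulators were detected in all 16 lysates. Of 14 listed collagen processing genes, 13 were found in the deposited counts, and these 13 were detected in all 16 lysates. RNA came from whole animals, so fewer expressing cells and less RNA per cell cannot be told apart.

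Apart from dpy-10, the body-shape collagens were lowest in lysate 1 or 2 and highest in lysate 4 of every strain, with lysate 3 above lysates 1 and 2 except for dpy-2 and dpy-7 in ΔLOTUS. Together they took 0.00477% to 0.00560% of the lysate counts in the 4 libraries of number 1 and 0.00358% to 0.00827% in those of number 2. In number 3 they took 0.0188% to 0.0488%, and in number 4 0.0251% to 0.134%. An F test of the replicate number over all strains with edgeR's quasi-likelihood method called 9 of the 10 genes in the lysates and the same 9 in the polysome fraction, where 87.7% and 78.5% of all genes were called. dpy-10 was not called, with adjusted p = 0.0839 for the lysates and 0.0664 for polysomes. A share of 9 in 10 is near that background and is no result about these genes. Fitted lysate levels in number 4 exceeded those in number 1 by a median of 3.70 on the log2 scale over the 10 genes, against 0.26 over the 15939 genes tested, of which 7.06% differed by at least as much. The same median was 3.32 in the polysome fraction, against 0.12 over 15378 genes.

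**Figure D1:**
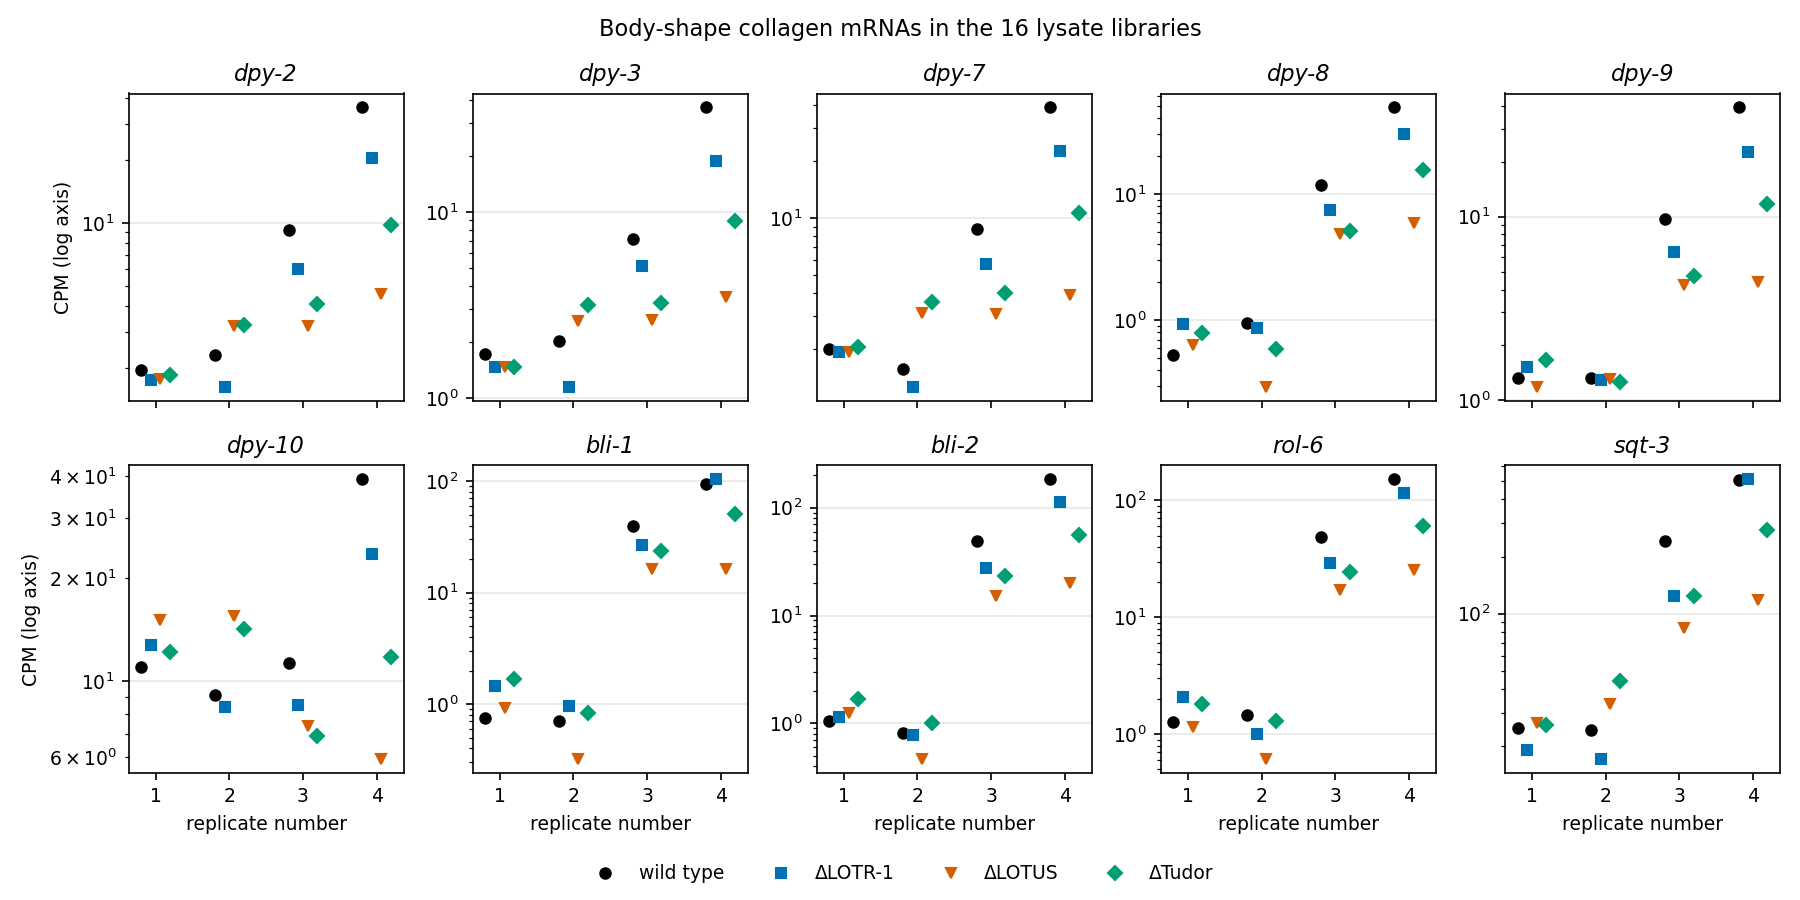
Level in CPM (log axis) of each of the 10 collagen mRNAs in the 16 lysate libraries, by replicate number, with 1 point per library and a separate scale in each panel. For 9 genes the libraries of numbers 3 and 4 lie above most of those of numbers 1 and 2, and ΔLOTUS is the lowest strain for all 10 genes in number 4, while dpy-10 stays between 5.92 and 39.1 CPM.

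The strut collagens and rol-6 spanned the widest range. For bli-1 the wild-type lysates 1 to 4 gave 0.753, 0.712, 39.7 and 95.1 CPM. The ΔLOTR-1 lysates gave 1.45, 0.951, 26.8 and 104 CPM, the ΔLOTUS lysates 0.917, 0.323, 16.2 and 16.4, and the ΔTudor lysates 1.67, 0.823, 23.4 and 51.2. Every library of numbers 3 and 4 was thus above every library of numbers 1 and 2, and within number 4 ΔLOTUS was lowest. For bli-2 the wild type gave 1.06, 0.817, 49.3 and 184 CPM. ΔLOTR-1 gave 1.15, 0.784, 27.8 and 113 CPM, ΔLOTUS 1.25, 0.469, 15.1 and 20.2, and ΔTudor 1.67, 1.01, 23.2 and 55.9. The order in numbers 3 and 4 had the wild type on top and ΔLOTUS at the bottom. For rol-6 the wild type gave 1.28, 1.45, 49.0 and 152 CPM. ΔLOTR-1 gave 2.08, 1.01, 29.1 and 116 CPM, ΔLOTUS 1.15, 0.616, 17.2 and 25.4, and ΔTudor 1.81, 1.3, 24.2 and 60.7. Fitted log2 differences of number 4 from number 1 in the lysates were 5.92 for bli-2, 5.65 for rol-6 and 5.64 for bli-1, and those of number 2 from number 1 were -0.81, -0.57 and -0.82.

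sqt-3 was never near the floor. It measured 24.9, 24.5, 241 and 504 CPM in wild-type lysates 1 to 4. ΔLOTR-1 gave 19.1, 17.2, 124 and 512 CPM, ΔLOTUS 26.7, 33.3, 83.7 and 117, and ΔTudor 25.7, 44.2, 123 and 277. In number 4 ΔLOTR-1 and the wild type were nearly level and ΔLOTUS was again the lowest. The fitted difference of number 4 from number 1 was 3.82 on the log2 scale.

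Among the furrow collagens dpy-8 and dpy-9 showed the largest differences between numbers. dpy-8 measured 0.530, 0.949, 11.8 and 48.4 CPM in wild-type lysates 1 to 4. ΔLOTR-1 gave 0.929, 0.867, 7.51 and 29.8 CPM, ΔLOTUS 0.637, 0.293, 4.76 and 5.90, and ΔTudor 0.794, 0.584, 5.11 and 15.5. Numbers 1 and 2 did not reach 1 CPM in any strain. dpy-9 measured 1.31, 1.32, 9.67 and 39.5 CPM in the wild type. ΔLOTR-1 gave 1.5, 1.29, 6.41 and 22.5 CPM, ΔLOTUS 1.17, 1.29, 4.22 and 4.42, and ΔTudor 1.64, 1.25, 4.71 and 11.7. Both genes had a fitted log2 difference of number 4 from number 1 above 3, with 4.87 for dpy-8 and 3.57 for dpy-9.

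dpy-2, dpy-3 and dpy-7 moved in smaller steps. In the wild type dpy-2 measured 1.95, 2.32, 9.22 and 35.9 CPM, dpy-3 1.73, 2.03, 7.17 and 36.3, and dpy-7 2.01, 1.58, 8.70 and 38.7. In ΔLOTUS dpy-2 measured 1.78, 3.20, 3.19 and 4.56 CPM, dpy-3 1.48, 2.61, 2.64 and 3.51, and dpy-7 1.94, 3.11, 3.10 and 3.88. For these 3 furrow genes the ΔLOTUS lysates of numbers 2 and 3 were at the same level, where the wild type differed several-fold. Over the 3 genes ΔTudor measured 1.48 to 10.6 CPM and ΔLOTR-1 1.15 to 22.7 CPM. In numbers 3 and 4 both lay between the wild type and ΔLOTUS, and in number 2 ΔTudor was above both and ΔLOTR-1 below both. Fitted log2 differences of number 4 from number 1 were 3.07, 3.23 and 3.06.

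dpy-10, a furrow collagen whose dominant roller allele is a common marker in genome editing, behaved differently by number. The wild type gave 11, 9.12, 11.3 and 39.1 CPM. ΔLOTR-1 gave 12.7, 8.42, 8.49 and 23.5 CPM, ΔLOTUS 15.1, 15.6, 7.38 and 5.92, and ΔTudor 12.2, 14.2, 6.90 and 11.7. In ΔLOTUS numbers 3 and 4 were the lowest for this gene, whereas number 4 was the highest for each of the other 9. Its fitted difference of number 4 from number 1 was 0.57 on the log2 scale. In all 32 libraries the deposited counts of dpy-10 and of sqt-3 were not whole numbers, against 15.3% of positive values over all genes, so levels of both include reads that Salmon divided. The same held in 13 of 32 libraries for dpy-3, in 8 of 32 for rol-6 and in at most 3 of 32 for each of the rest. The annotation also shows T14B4.19 overlapping dpy-10, zyg-1 overlapping bli-2, C31H2.14 overlapping dpy-8 and the non-coding gene F23H12.13 overlapping sqt-3. C31H2.14 measured 2.04 to 4.95 CPM in the lysates and at least 6.24 CPM in the polysome libraries, above dpy-8 in lysates 1 and 2 of every strain. T14B4.19 stayed under 1 CPM in every library, and zyg-1 measured 22.4 to 90.3 CPM in the lysates, with its lowest values in number 4.

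Over the 16 lysates the 9 collagens other than dpy-10 followed each other closely. Pearson's r between pairs of log2 levels was 0.844 to 0.997 over these 36 pairs, and 0.201 to 0.637 between dpy-10 and each of the others. With the mean of each replicate number subtracted, r was 0.713 to 0.994 among the 9 and 0.732 to 0.965 between dpy-10 and the others. These r pool the 4 numbers and do not show that dpy-10 moved with the others inside each number. In number 2 the ΔLOTUS lysate differed from the wild type by 0.74 for dpy-10 on the log2(CPM + 0.5) scale. The same difference was -0.87 for dpy-8, -0.80 for rol-6, -0.56 for bli-1, -0.44 for bli-2 and -0.02 for dpy-9. It was above 0 for dpy-2, dpy-3, dpy-7 and sqt-3. These points share libraries and the 4 numbers, and the values are descriptions.

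Mutant and wild-type levels were compared within each fraction without and with the replicate number as a block. Without the block, edgeR called none of the 10 collagens in any mutant in either fraction, none had an unadjusted p under 0.05, and DESeq2 called none. The background was 0.27% of genes called for ΔLOTR-1, 0.144% for ΔLOTUS and 0.0753% for ΔTudor lysates, and 0.221%, 0.0585% and 0.0975% in the polysome fraction. Median estimates over the 10 genes in the lysates were -0.70 for ΔLOTR-1, -2.14 for ΔLOTUS and -1.39 for ΔTudor on the log2 scale, where the median gene was within 0.02 of 0. Standard errors of single genes reached 1.93, since numbers 1 to 4 of every strain were spread so widely. For none of the 10 genes did a mutant's 4 values clear those of the wild type in either fraction, while 2.52%, 3.45% and 2.59% of all genes did so in ΔLOTR-1, ΔLOTUS and ΔTudor lysates and 1.24%, 1.75% and 1.22% in their polysome libraries.

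With the block, ΔLOTUS lysates had less mRNA of 5 of the 10 collagens, among 20.6% of all genes called in either direction and 11.1% called lower. rol-6 fell by 1.66 on the log2 scale (SE 0.28, adjusted p = 0.00162), dpy-8 fell by 1.74 (SE 0.34, adjusted p = 0.00334) and bli-2 fell by 1.88 (SE 0.38, adjusted p = 0.00410). bli-1 fell by 1.49 (SE 0.33, adjusted p = 0.00666) and dpy-9 fell by 1.39 (SE 0.38, adjusted p = 0.0193). The other 5 were not called, with estimates of -1.33 (SE 0.48) for dpy-3, -1.19 (SE 0.43) for dpy-2, -1.15 (SE 0.52) for dpy-7, -0.76 (SE 0.38) for sqt-3 and -0.52 (SE 0.41) for dpy-10. The number of calls was 5 without number 1, 8 without number 2, 2 without number 3 and 3 without number 4, with no share of all genes given for these fits. dpy-8 and rol-6 were called in all 4 of these fits. Without number 3 the estimates stayed near those of all 4 numbers, at -1.74 for rol-6, -1.96 for dpy-8, -1.96 for bli-2, -1.63 for bli-1 and -1.39 for dpy-9, with larger standard errors of 0.37 to 0.55. Without number 4 they were nearer to 0, at -1.14, -1.02, -1.07, -0.92 and -0.61 in the same order.

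In ΔTudor lysates 1 of the 10 collagens was called with the block, among 13.6% of all genes called in either direction and 7.89% called lower. That count is near its background and is no result about these genes. dpy-8 fell by 1.11 (SE 0.32, adjusted p = 0.0371), and it was no longer called without number 2, 3 or 4, with estimates of -1.20, -0.97 and -0.70 and adjusted p of 0.0840, 0.220 and 0.140. The estimates of the other 9 ranged from -0.96 (SE 0.36) for bli-2 to -0.33 (SE 0.38) for sqt-3. In ΔLOTR-1 lysates 0 of 10 were called by edgeR with the block, and 0 had an unadjusted p under 0.05, among 7.82% of all genes called. Estimates there ranged from -0.67 (SE 0.44) for dpy-3 to 0.01 (SE 0.30) for bli-1.

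**Figure D2:**
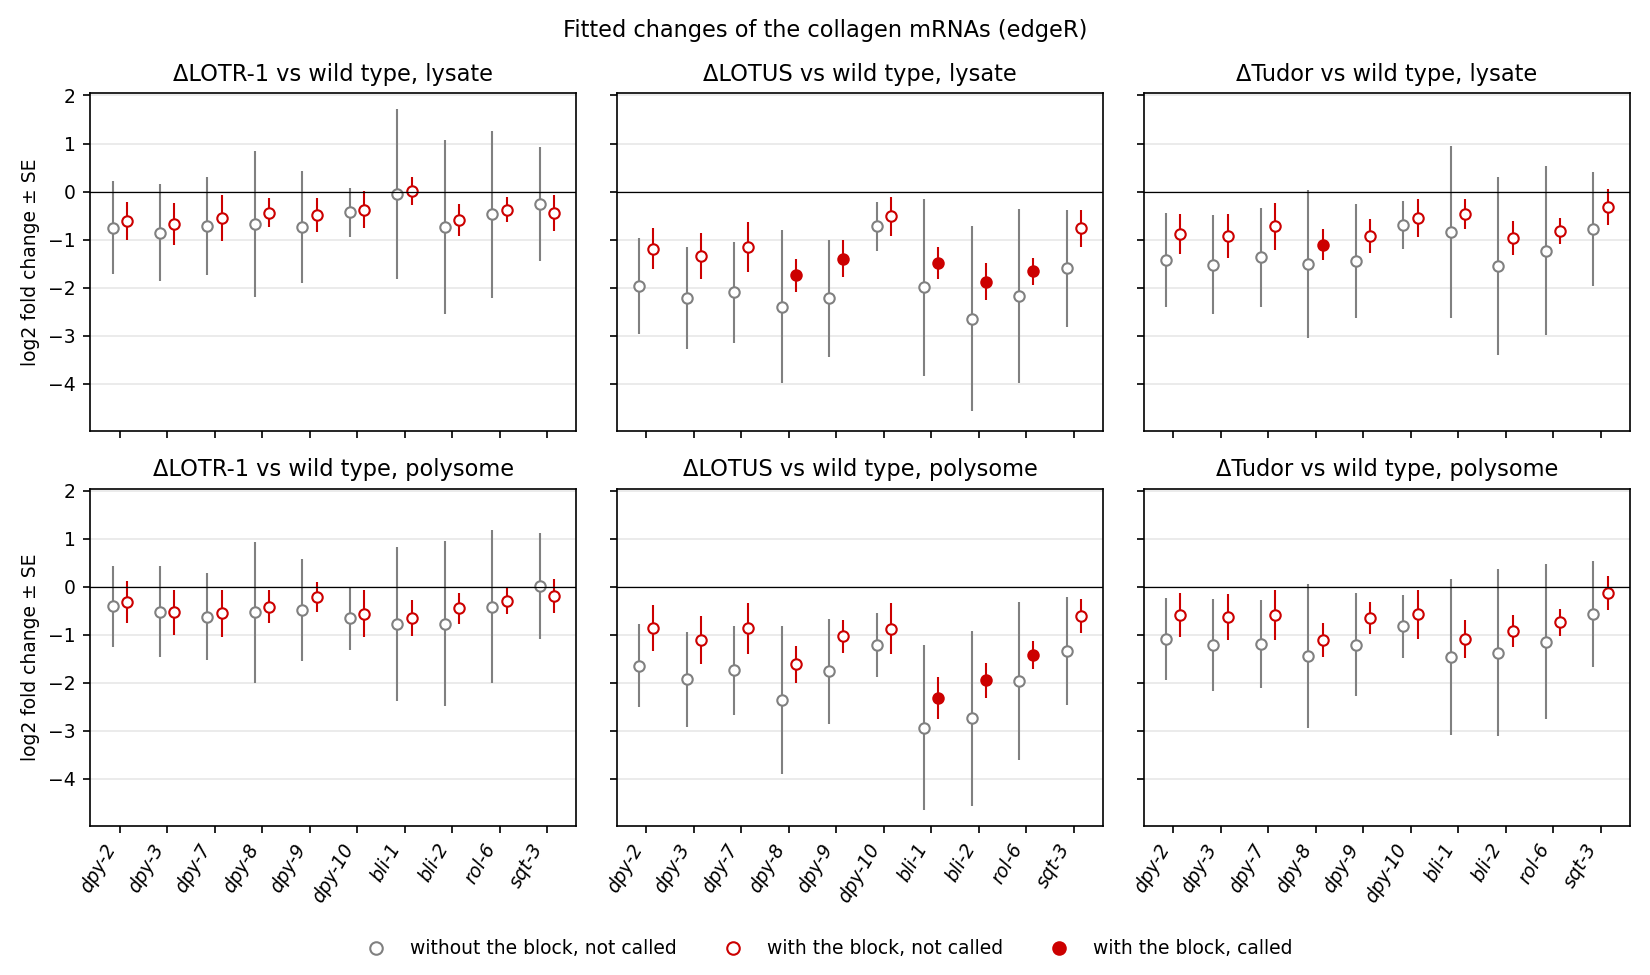
Fitted log2 fold change of each collagen mRNA in each mutant against the wild type, with its standard error as a bar, in lysates (top) and polysome fraction (bottom), without the replicate block (grey) and with it (red). Filled points were called at an adjusted p under 0.05: 5 genes in ΔLOTUS lysates, 1 in ΔTudor lysates and 3 in ΔLOTUS polysomes, all with the block.

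The polysome fraction gave fewer calls. With the block, 3 of the 10 collagens were lower in ΔLOTUS, among 1.05% of all genes called in either direction and 0.637% called lower. bli-1 fell by 2.32 (SE 0.44, adjusted p = 0.0232), bli-2 fell by 1.94 (SE 0.37, adjusted p = 0.0212) and rol-6 fell by 1.42 (SE 0.30, adjusted p = 0.0338). Leaving out number 3 or number 4 ended all 3 of these calls, with adjusted p of 0.122 to 0.345 without number 3 and 0.110 to 0.328 without number 4. Without number 3 the estimates were -2.94 for bli-1, -2.17 for bli-2 and -1.14 for rol-6, and without number 4 they were -1.34, -1.09 and -1.04. In ΔTudor and ΔLOTR-1 polysomes 0 of 10 were called by edgeR with the block, where 0.228% and 0.631% of all genes were called. At an unadjusted p under 0.05 there were 4 in ΔTudor and 0 in ΔLOTR-1.

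The mutants were also set against each other. With the block, ΔLOTUS lysates held less rol-6 than the ΔLOTR-1 ones, at a log2 difference of -1.28, and less bli-1, at -1.5, with adjusted p of 0.0432 and 0.0459, and these 2 of 10 stood among 1.36% of all genes called. Without number 1, bli-1 alone was called, and without number 2, 3 or 4 neither gene was. Without number 4 the differences were -0.81 for rol-6 and -0.88 for bli-1. None of the 10 was called by edgeR between ΔTudor and ΔLOTR-1 lysates or between ΔLOTUS and ΔTudor lysates, where 0.527% and 0.847% of all genes were, with 0 and 3 at an unadjusted p under 0.05. In the polysome fraction none was called between any pair of mutants by edgeR with the block, with 5 at an unadjusted p under 0.05 for ΔLOTUS against ΔLOTR-1, 0 for ΔTudor against ΔLOTR-1 and 3 for ΔLOTUS against ΔTudor. The share of all genes called in these polysome comparisons was 0.481%, 0.208% and 0.306%. These comparisons use the same mutant libraries as those against the wild type.

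The block assumes the same strain difference at every number, and the values by number were not alike. On the log2(CPM + 0.5) scale the median difference of ΔLOTUS from the wild-type lysate of the same number, over the 10 collagens, was 0.03, 0.14, -1.32 and -2.89 for numbers 1 to 4. In ΔTudor it was 0.19, 0.30, -1.02 and -1.70, and in ΔLOTR-1 0.11, -0.18, -0.58 and -0.71. The median gene lay within 0.07 of 0 in all of these. In number 4 all 10 collagens were lower in ΔLOTUS, by log2 differences of -2.10 to -3.20, and all 10 in ΔTudor, by -0.86 to -1.97. Of all genes, 49.4% and 48.7% were lower there. Numbers 1 and 2 had 5 of 10 lower in ΔLOTUS each, where 41.9% and 51.6% of all genes were. In number 2 dpy-8, rol-6, bli-1 and bli-2 were lower, at -0.87, -0.80, -0.56 and -0.44, and dpy-9 was at -0.02. There dpy-2, dpy-3, dpy-7, dpy-10 and sqt-3 were higher, at 0.30 to 0.79. In the polysome libraries of number 2 the former genes were again lower, at -0.45 to -0.60, with dpy-9 at 0.12. The latter genes were again higher, at 0.35 to 0.98. There is 1 library per strain, fraction and number, so the change of the difference with the number has no test.

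The differences by number of single genes show the pattern. For bli-2 the ΔLOTUS lysates differed from the wild type of the same number by 0.16, -0.44, -1.68 and -3.16 on the log2(CPM + 0.5) scale, a mean of -1.28 ± 1.47 (SD, n = 4). For dpy-10 the same differences were 0.44, 0.74, -0.58 and -2.63, a mean of -0.51 ± 1.52 (SD, n = 4). For sqt-3 they were 0.10, 0.44, -1.52 and -2.10, a mean of -0.77 ± 1.23 (SD, n = 4). In each of these cases the spread over numbers exceeded the mean. It did not for rol-6, at -0.12, -0.80, -1.48 and -2.56, a mean of -1.24 ± 1.04 (SD, n = 4). Only rol-6 and dpy-9 were lower in ΔLOTUS than in the wild type at all 4 numbers of the lysates, and 18.2% of all genes were.

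The order of the strains was nearly fixed within numbers 3 and 4. ΔLOTUS was the lowest of the 4 strains for 9 of 10 collagens in lysates of number 3, where it was lowest for 30.5% of all genes, with dpy-10 as the exception. In number 4 it was lowest for 10 of 10, again against 30.5% of all genes. The wild type was the highest for 10 of 10 in number 3 and for 8 of 10 in number 4, against 35.9% and 32.2% of all genes. In number 4 bli-1 and sqt-3 were highest in ΔLOTR-1. The polysome fraction gave 9 of 10, with dpy-2 as the exception, and 10 of 10 for ΔLOTUS as the lowest, against 29.4% and 27% of all genes. In numbers 1 and 2 of the lysates ΔLOTUS was lowest for 3 and 4 of the 10, against 22% and 20.1% of all genes. The members move together, so these counts are not independent.

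**Figure D3:**
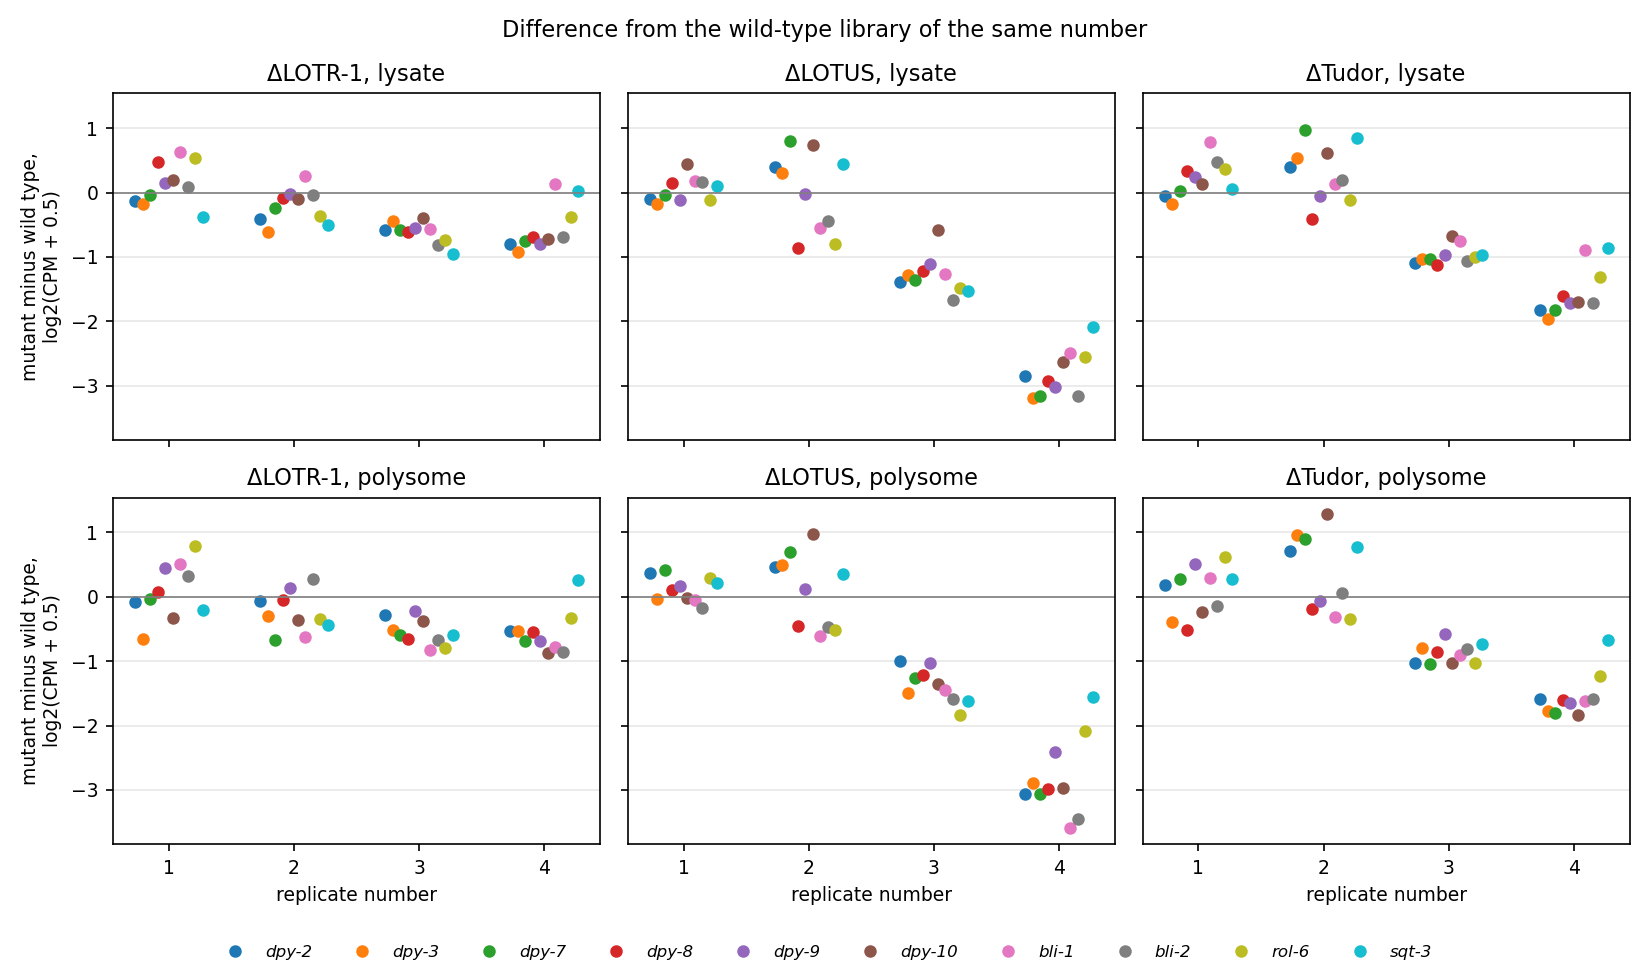
Difference of each mutant from the wild-type library of the same replicate number on the log2(CPM + 0.5) scale, for the 10 collagens in lysates (top) and polysome fraction (bottom), with 1 point per gene and number. Points lie on both sides of 0 in numbers 1 and 2 and below 0 in number 3 for all 3 mutants. In number 4 the median is lowest in ΔLOTUS, at -2.89 for lysates and -2.98 for polysomes.

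Other transcripts differed between the numbers in the same libraries. The summed level of 10 genes of molting (proteases, zona pellucida proteins and other genes needed to shed the old cuticle) was 48.7 to 55.4 CPM in the lysates of number 1 and 54.3 to 77.0 in number 2, then 111 to 247 in number 3. In number 4 it was 626 CPM in the wild type, 550 in ΔLOTR-1, 321 in ΔTudor and 129 in ΔLOTUS, the strain order of most of the collagens. The 6 vitellogenin mRNAs, which encode the yolk proteins of the adult intestine, summed to 43718 to 51411 CPM in number 1 and to 10292 to 24029 in number 4. Within number 4 that sum was 10292 CPM in the wild type, 16420 in ΔLOTR-1, 18513 in ΔTudor and 24029 in ΔLOTUS, the reverse order. The part of these differences in the collagen results was not tested.

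Germ-line and somatic markers moved as well. The 10 oocyte and eggshell genes summed to 7705 to 9262 CPM in number 1 and to 1762 to 2757 in number 4, and the 8 germ-line genes to 3232 to 3947 and to 1845 to 2173. The 8 sperm genes summed to 31.4 to 41 CPM in number 1 and 149 to 174 in number 4. The 8 muscle genes summed to 3632 to 3942 and 5859 to 7053 CPM, and the 8 intestinal genes to 3195 to 3648 and 5504 to 6252. Of all the marker genes, 1 sperm gene was at 0 in some lysate, and every other was detected in all 16. With the block, at most 3 members of any of these marker lists were called in the lysates of a mutant. The 3 were among the 8 intestinal genes and lower in ΔLOTUS, where 11.1% of all genes were called lower. Their part was not tested.

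**Figure D4:**
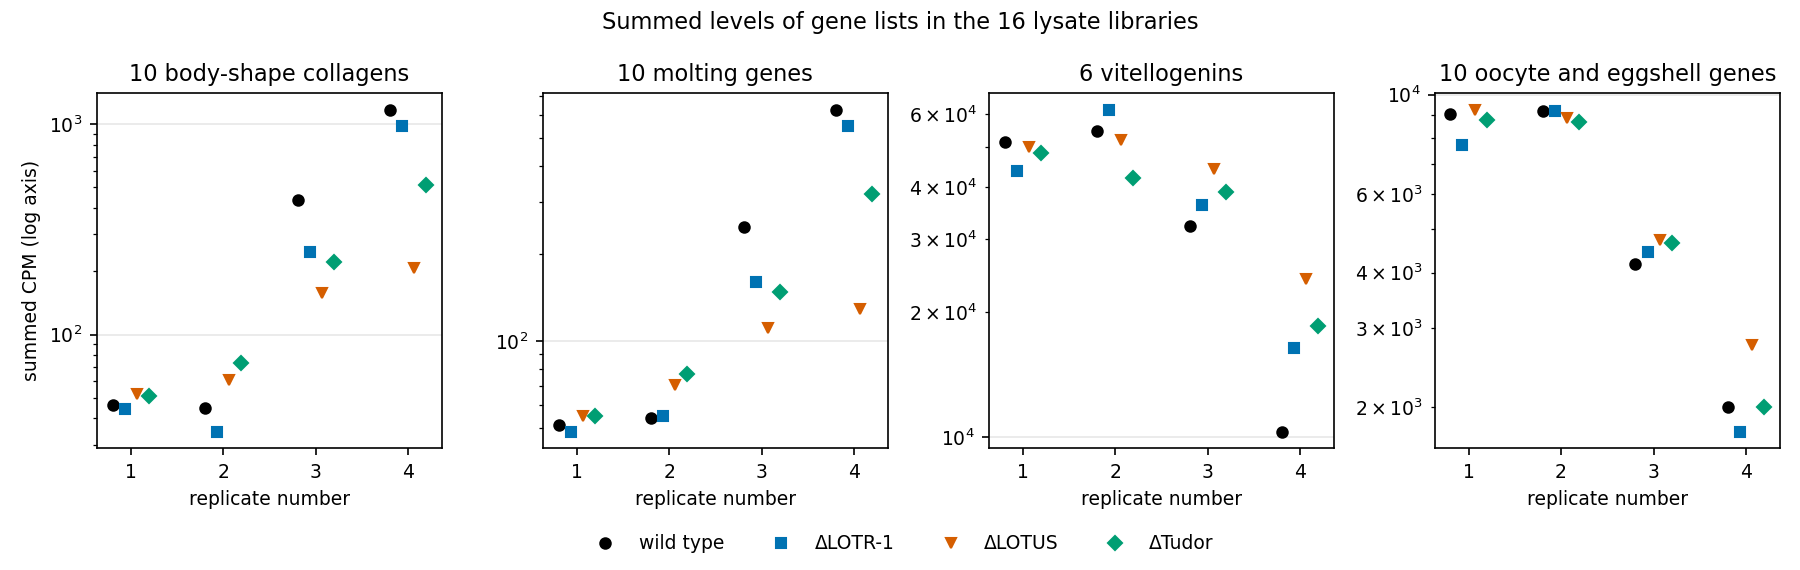
Summed level in CPM (log axis) of the 10 body-shape collagens, 10 molting genes, 6 vitellogenins and 10 oocyte and eggshell genes in the 16 lysates, by replicate number, with 1 point per library. The first 2 sums are highest in number 4 of the wild type and the vitellogenin sum is lowest there, at 10292 CPM.

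Further collagens of the dumpy, roller, squat, blister and long classes gave the same picture in larger numbers. The 11 listed genes summed to 99.2 to 132 CPM in lysates of number 1 and to 2278 to 7190 in number 4. Without the block edgeR called 0 of the 11 in any mutant, with 0 at an unadjusted p under 0.05. With the block 9 of 11 were lower in ΔLOTUS lysates, where 11.1% of all genes were, at a median of -1.14 against -0.01 over all genes. The count was 9, 9, 5 and 8 without numbers 1 to 4. lon-3, a collagen whose loss makes worms long, fell by 1.78 (SE 0.37), rol-8 fell by 1.64 (SE 0.26), and sqt-2 and sqt-1 each fell by 1.57 (SE 0.26). lon-3 was at -1.84 without number 3 and -1.04 without number 4, both not called, and the other 3 stayed called in all 4 fits. ΔTudor lysates had 4 of 11 lower, where 7.89% of all genes were, with rol-8 at -0.98, sqt-1 at -0.87, sqt-2 at -0.85 and bli-6 at -0.57. That count was 9 without number 1, 0 without number 2 or 3 and 1 without number 4. ΔLOTR-1 lysates had 0 of 11 called, with 1 at an unadjusted p under 0.05. In the polysome fraction 7 of 11 were lower in ΔLOTUS, where 0.637% of all genes were, again with lon-3 as the furthest at -1.79 (SE 0.34), and 9, 4, 0 and 0 were without numbers 1 to 4.

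Collagens of the adult stage behaved otherwise. The 4 listed genes, col-7, col-19, col-62 and col-63, summed to 1131 to 1461 CPM in lysates of number 1 and to 1793 to 2354 in number 4, and in number 4 the sum was highest in ΔLOTUS. Of them col-63 was called with the block, 1 of 4, among 11.1% of all genes called lower in ΔLOTUS lysates and 7.89% in ΔTudor. It fell by 1.41 (SE 0.22) in ΔLOTUS and by 0.72 (SE 0.22) in ΔTudor lysates, and the median of the 4 was -0.10 and -0.15. The ΔLOTUS call held without any 1 number, and the ΔTudor call ended without number 2, 3 or 4.

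Enzymes that process and cross-link cuticle collagen changed less. With the block, 4 of 13 were lower in ΔLOTUS lysates, against 11.1% of all genes, and 4, 3, 0 and 2 were without numbers 1 to 4. bli-5, a protease inhibitor, fell by 0.75 (SE 0.22), fkb-3, a peptidyl-prolyl isomerase, fell by 0.74 (SE 0.19), and the prolyl 4-hydroxylase subunits dpy-18 and phy-2 fell by 0.67 (SE 0.16) and 0.62 (SE 0.13). The median of the 13 was 0.00. In ΔTudor lysates phy-2 alone was called, 1 of 13, where 7.89% of all genes were called lower. That count is near its background and is no result about the list. phy-2 fell by 0.49 (SE 0.13), a call that ended without number 2 or 3. No enzyme was called in ΔLOTR-1, where 1 had an unadjusted p under 0.05, and without the block edgeR called none in any mutant, with 0 at an unadjusted p under 0.05.

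The BMP-like pathway sets body length in the worm, through the ligand DBL-1, the receptors SMA-6 and DAF-4 and the SMA-2, SMA-3 and SMA-4 Smads, and cuticle collagen genes are among its known targets. With the block, 3 of 12 listed genes were higher in ΔLOTUS lysates and 1 was lower, against 9.47% and 11.1% of all genes. The higher ones were sma-10, a transmembrane protein that binds the receptors, at 0.44 (SE 0.11), the transcription cofactor sma-9 at 0.43 (SE 0.11) and the receptor gene daf-4 at 0.32 (SE 0.10). lon-1, a gene that the pathway represses, fell by 0.31 (SE 0.08). None of the 12 was called without number 1 or 3, and sma-9 alone was without number 4. None was called in ΔLOTR-1 or ΔTudor lysates by edgeR, where 3 and 4 had an unadjusted p under 0.05.

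Regulators of the epidermis were little changed. Of 10 listed transcription factors and heterochronic regulators, 1 was called in ΔLOTUS lysates with the block, where 9.47% of all genes were called higher. It was lin-41, a heterochronic RNA-binding protein that represses lin-29, at 0.49 (SE 0.16), and only the fit without number 2 kept that call. The sum of the 10 regulators, lin-41 included, was 286 to 421 CPM in lysates of number 1 and 95.6 to 142 in number 4. This is the opposite direction to the collagens and the same direction as the oocyte and germ-line sums. RNA came from whole animals, and the tissue in which the sum fell was not tested. Of 10 genes that respond to damage of the cuticle or to loss of furrow collagens, 1 was called with the block in ΔLOTUS lysates. Of all genes, 11.1% were called lower there. It was nlp-30, an antimicrobial peptide gene, which fell by 0.95 (SE 0.23), a call that ended without number 3 or 4. Each count of 1 in 10 is near its background and is no result about its list. Of the 10 molting genes 0 were called by edgeR in any mutant lysate with the block, with 5 at an unadjusted p under 0.05 in ΔLOTUS, and their median there was -0.82. In ΔLOTUS 1 of them was called without number 1 and 3 were without number 2.

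The polysome fraction was then set against the lysate it came from. Without the lysate as a block, edgeR called 0 of 10 collagens in each strain, with 0 at an unadjusted p under 0.05 and 0 by DESeq2, where 19.3% of all genes were called for the wild type, 23.3% for ΔLOTR-1, 23.6% for ΔLOTUS and 24% for ΔTudor. That fit ignores that both fractions came from 1 lysate, so its 0 of 10 does not show equal levels. With the block edgeR called 5 of 10 in the wild type, 6 in ΔTudor, 8 in ΔLOTUS and 9 in ΔLOTR-1. In the same order the background was 55.5%, 59.1%, 59.2% and 58.3%. The counts of the wild type and ΔTudor are near that share and those of ΔLOTR-1 and ΔLOTUS above it, with no test of the difference. Leaving out a number moved the wild-type count to 3, 4, 3 and 8 without numbers 1 to 4, and the ΔLOTR-1 count to 5 without number 1 and 6 without number 2 or 3.

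bli-1 was lower in the polysome fraction than in the lysate in 16 of 16 lysates, by a log2 difference of -0.38 to -2.59 with a median of -1.38, and 21.3% of all genes were lower in all 16. Polysome levels of bli-1 were 0.335, 0.428, 9.01 and 33.4 CPM in wild-type replicates 1 to 4. ΔLOTR-1 gave 0.687, 0.106, 4.86 and 19.1 CPM, ΔLOTUS 0.306, 0.111, 2.98 and 2.30, and ΔTudor 0.524, 0.249, 4.57 and 10.5. Number 2 rests on 3 to 11 counts per polysome library, and number 4 on 66 to 1055. With the block the fitted log2 difference was -1.63 (SE 0.23, adjusted p = 8.97e-06) in the wild type, -2.27 (SE 0.23) in ΔLOTR-1, -2.45 (SE 0.26) in ΔLOTUS and -2.17 (SE 0.23) in ΔTudor. bli-1 stayed called in all 4 strains when any replicate number was left out. Without the block the wild-type difference was -1.66 with an SE of 1.77 and an adjusted p of 0.624.

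Its partner in the struts did not share this. bli-2 was higher in the polysome fraction in 13 of 16 lysates, with a median of 0.23, and measured 1.79, 1.05, 59.0 and 195 CPM in the wild-type polysomes. In each of the 16 lysates the polysome-to-lysate difference of bli-1 was below that of bli-2, and below that of each other collagen except dpy-10, for which it was lower in 14 of 16. dph-2, a gene that overlaps bli-1 in the annotation, measured 28.6 to 48.2 CPM over the lysates and 37.3 to 47.1 CPM over the polysome libraries. Deposited counts of bli-1 were not whole numbers in 2 of 32 libraries, or 6.25%, against 15.3% of positive values over all genes. Reads shared with dph-2 cannot be told apart further, as no source used here states whether counting used the strand.

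The remaining genes split by direction. dpy-3, dpy-7, dpy-9 and sqt-3 were higher in the polysome fraction in 16 of 16 lysates, where 23.5% of all genes were, with medians of 0.44, 0.48, 0.53 and 0.56 on the log2 scale. All 4 were called higher with the block in all 4 strains, for sqt-3 at 0.47 (SE 0.10) in the wild type, 0.69 (SE 0.11) in ΔLOTR-1, 0.59 (SE 0.10) in ΔLOTUS and 0.62 (SE 0.10) in ΔTudor. When a replicate number was left out, sqt-3 stayed called in all 4 strains, while dpy-3 and dpy-9 lost the call in the wild type (without number 1 or 3, and without 1, 2 or 3) and dpy-7 in ΔLOTR-1 (without number 1 or 3). dpy-2 was higher in 15 of 16 and rol-6 in 14 of 16, with medians of 0.45 and 0.41. dpy-8 was near level, higher in 5 of 16, with a median of -0.05. dpy-10 was higher in 1 of 16, with a median of -0.31, and was called lower with the block in ΔLOTR-1 at -0.44 (SE 0.17) and in ΔLOTUS at -0.56 (SE 0.17), calls that ended without number 1 or 2 in the former and without number 3 in the latter. With DESeq2 size factors in place of TMM, the median of all genes in these comparisons moved by -0.09 to -0.11, which is less than the medians of these genes other than dpy-8.

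**Figure D5:**
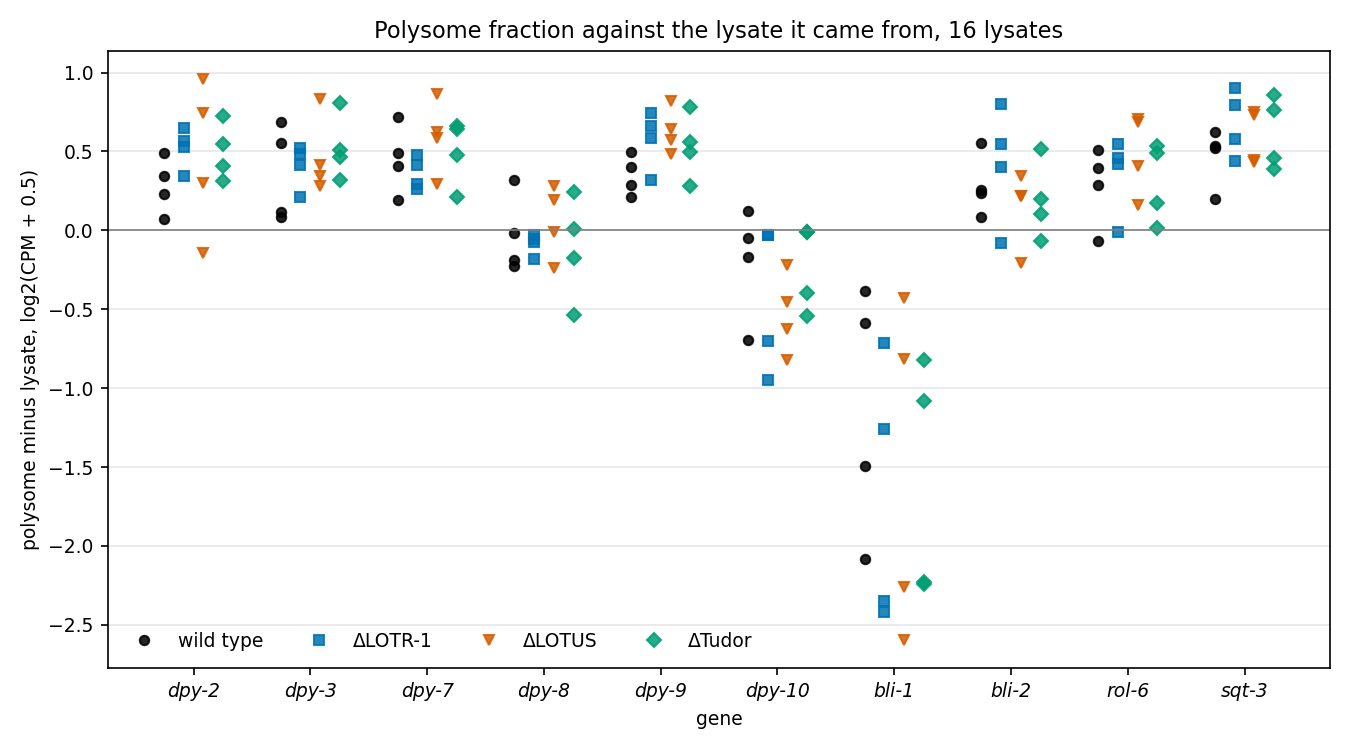
Difference of the polysome library from the lysate library of the same replicate on the log2(CPM + 0.5) scale for the 10 collagen mRNAs, with 1 point for each of the 16 lysates, marked by strain. All 16 points of bli-1 lie below 0, between -0.38 and -2.59, and all 16 points of dpy-3, dpy-7, dpy-9 and sqt-3 lie above 0.

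Translational efficiency, here how far the polysome level exceeds that of its lysate, was compared between mutants and the wild type as the interaction of strain and fraction. edgeR called 0 of 10 collagens in any mutant without or with the block, and DESeq2 called 0. At an unadjusted p under 0.05 there were 0 without the block and, with it, 1 in ΔLOTUS and 0 in the others. Over all genes 0% were called without the block, and with it 0.0554% for ΔLOTR-1, 0% for ΔLOTUS and 0.00615% for ΔTudor. The furthest estimates with the block were those of bli-1, at -0.64 (SE 0.32) in ΔLOTR-1, -0.82 (SE 0.34) in ΔLOTUS and -0.54 (SE 0.32) in ΔTudor. The other 9 lay between -0.37 and 0.36.

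Genes whose lysate pattern was most like that of each collagen group were sought among 12973 genes over the 16 lysates. For the furrow collagens, Pearson's r of the log2 level was highest for T05C1.3 at 0.994, dao-2 at 0.991, lpr-6 at 0.987, Y37A1B.7 at 0.986 and F11E6.9 at 0.986. For the struts it was highest for the collagen genes lon-3 at 0.999 and sqt-1 at 0.997, then ZK1025.3 at 0.997, E01G4.6 at 0.996 and T19C3.2 at 0.996. For rol-6 and sqt-3 it was highest for grl-5, abu-13, grl-7, ptr-18 and lips-3, at 0.998, 0.998, 0.998, 0.997 and 0.997. With the mean of each number subtracted, T05C1.3 and dao-2 stayed among the closest 5 to the furrow collagens at 0.989 and 0.978, beside F58H1.2, C01F1.5 and osr-1. lon-3 stayed closest to the struts at 0.984, followed by Y43D4A.5, F13D11.4, F26A1.9 and moe-3. grl-5, abu-13 and grl-7 stayed among the closest to rol-6 and sqt-3 at 0.984, 0.981 and 0.978, with ZC123.1 and H42K12.3. All of these points share libraries and depth, so the values describe likeness in these 16 lysates.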

How the data were processed

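Polyadenylated RNA was sequenced with a stranded kit from lysates and polysome fractions of 4 strains, per the labels' protocols. The submitters' processing notes name Salmon and DESeq2 without versions. For build, annotation and strand setting, the sources used here give nothing. Expected counts per gene, estimated by the authors and deposited as decimals, were rounded to integers for testing. The authors also deposited replicate-adjusted whole numbers, handled here as a score because the method of adjustment is not stated, and used only as an alternative. The deposited sample sheet was not needed.

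Each fraction was fitted over its 16 libraries with strain as the term, using filterByExpr, TMM and the quasi-likelihood test of edgeR 4.0.16 in R 4.3.3 with limma 3.58.1. Genes were called at a Benjamini-Hochberg adjusted p under 0.05 over all 15939 (lysate) or 15378 (polysome) genes tested. Polysome against lysate and translational efficiency were fitted over all 32 libraries and 16253 genes. The replicate number was tested in each fraction beside strain. CPM used TMM library sizes over all 32 libraries, log2 differences between single libraries used a pseudocount of 0.5 CPM, and a standard error is the size of the log2 fold change over the square root of its F value. Alternatives were DESeq2 1.42.0, its size factors (RLE), no filter on low counts, the replicate block (the lysate in fits over both fractions), leaving out each replicate number, and the replicate-adjusted table. The fits were tested on simulated data in which a strain difference was the same at every replicate number. That test does not cover differences that change with the number, as those of the collagens did.

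Same-numbered libraries deviated together. Deviations from group means over 12983 genes correlated with r of 0.923 to 0.971 between strains in the lysates, 0.823 to 0.948 in the polysome fraction and 0.879 to 0.948 between the fractions of 1 lysate. Between different numbers r ran from -0.969 to 0.944, from -0.953 to 0.922 and from -0.929 to 0.905 in the same order. These ranges overlap at the top, so the values do not show that each single number pairs the strains. The 2 fractions of 1 lysate are paired by the protocol, whatever these values are. Fits over both fractions without the lysate as a block ignore that pairing. The design text names strain and fraction as terms and no replicate, so the fit without the block stayed the primary one, although the authors also deposited replicate-adjusted values. The labels speak of biological replicates without naming separate cultures, and a p-value then covers only the spread between these samples, which may be technical. No 2 replicates of a group agreed within sampling noise in 48 pairs compared.

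The 10 collagens and all gene lists were chosen with earlier results of these data known. The text names all 10 collagens, up to 4 called genes of each other list with the largest change, the 5 genes most like each collagen group by each measure among genes with a mean of at least 1 CPM, and lotr-1. Gene names and overlaps came from the RefSeq annotation of WBcel235, which matched 43332 of 46926 rows and all 10 collagens, and no coordinates are printed because the build of the counts is not given. Collagens have near-identical relatives, so values of single genes are uncertain where reads were divided.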

Additional observations from a re-analysis of the deposited data

Results flagged for a closer look

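In 5 of 80 groups of 4 libraries, formed by gene, strain and fraction, the highest or lowest value stood far from the other 3, and chance gives about 1 in 20 such groups. Wild-type lysate 4 stood above its group for dpy-3 at 36.3 CPM and for dpy-10 at 39.1 CPM, and wild-type polysome library 4 did so for dpy-10 at 42.6 CPM. In the ΔLOTUS polysomes library 3 stood above the others for dpy-2 at 5.68 CPM, and library 1 stood below them for dpy-7 at 3.94 CPM. The 3 wild-type values all come from replicate number 4, the number with the highest levels of the other collagens.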

How the results depend on the processing

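Without the block, the count of called collagens in every comparison between strains or fractions was 0 under DESeq2, under RLE size factors, without the filter on low counts and without any 1 replicate number. The replicate block moved it from 0 to 5 in ΔLOTUS lysates, 1 in ΔTudor lysates, 2 for ΔLOTUS against ΔLOTR-1 lysates and 3 in ΔLOTUS polysomes, and to 5, 9, 8 and 6 for polysome against lysate in the wild type, ΔLOTR-1, ΔLOTUS and ΔTudor. The replicate-adjusted table gave 5 in ΔLOTUS lysates, 2 in ΔLOTUS polysomes, and 3 and 1 for ΔLOTUS against ΔLOTR-1 in lysates and polysomes. For polysome against lysate it gave 1, 3, 4 and 2 in the same strain order. Its counts come without the share of all genes called in those fits, so they are no result about the collagens. Leaving out 1 number with the block, an alternative chosen after seeing the data, gave 2 to 8 in ΔLOTUS lysates, 0 to 1 in ΔTudor lysates and for ΔLOTUS against ΔLOTR-1 lysates, 0 to 4 in ΔLOTUS polysomes, and 3 to 8, 5 to 9, 6 to 8 and 6 to 7 for the fractions. The block changed no other call of a comparison. Between mutants and the wild type, signs of single collagens turned in 9 cases over all alternatives, none of them a called value, and the cause was not tested. The block alone also turned 3 of 60 signs between mutants, 1 of 40 between fractions (dpy-8 in ΔLOTUS, -0.09 to 0.02) and 5 of 30 in translational efficiency, with no call among them. Leaving out 1 number without the block, dpy-10 ranged from -1.13 to 0.24 in ΔLOTUS lysates, from -1.02 to 0.035 in ΔTudor lysates and from -1.36 to 0.076 in ΔTudor polysomes, above 0 without number 4. bli-1 in ΔLOTR-1 lysates was at 0.0097 with the block and ranged from -0.47 to 0.14, above 0 without number 3. sqt-3 in ΔLOTR-1 polysomes was at -0.012 with DESeq2, -0.0054 with RLE size factors and -0.19 with the block, and ranged from -0.51 without number 4 to 0.27. Levels under 1 CPM in numbers 1 and 2 rest on as few as 3 counts per library, which limits the differences there.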
